A study of Homo sapiens with 9 samples.

Results

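Chromosome 21 was compared in its proximal part, with peak midpoints below 15 Mb, and its distal part, with midpoints at 15 Mb or beyond, on hg19. The peaks came from p300 chromatin immunoprecipitation and sequencing of irradiated PC3 cells, a human line grown from a bone metastasis of a prostate carcinoma. Of 19861 peaks in 5 lists, 567 lay on chromosome 21, with 187 in the proximal and 380 in the distal part, and all of them were used. Each peak was assigned to its part by midpoint alone, without its score, width or sharing. Earlier results of these data were known when the parts, boundary and measures were chosen, so tests between the parts are no independent check. In the treated group, 3 libraries came from cells given 30 µM MnTE-2-PyP for 24 h, a manganese porphyrin with the activity of superoxide dismutase. In the untreated group, 2 libraries came from cells without the drug. All cells of both groups received 20 Gy of radiation and were fixed in 1% formaldehyde 1 h later, so no group shows unirradiated cells. The labels write T2E for the drug, which is unrelated to the gene fusion of TMPRSS2 and ERG that is often shortened in the same way.

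p300 is a histone acetyltransferase and transcriptional coactivator that is recruited by transcription factors to enhancers and promoters. Chromosome 21 is an acrocentric chromosome, whose short arm carries ribosomal RNA gene arrays and satellite repeats that are closely related to those of the other acrocentric chromosomes. Sequence next to its centromere is rich in segmental duplications, in which short reads often match several places. The long arm is gene-poor near the centromere and gene-dense toward its end. It carries ERG and RUNX1, which encode transcription factors, and TMPRSS2, a protease gene driven by androgen receptor in prostate cells. No annotation of hg19 was used, so peaks are named by position and their relation to these genes was not analysed here.

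The lists differed widely in length, at 4922, 10059 and 528 peaks in treated lists 1, 2 and 3, against 2313 and 2039 in untreated lists 1 and 2. No read counts come with the lists, so the depth behind them is unknown, and a number of peaks measures binding and library yield together. By the peak names, treated list 1 and untreated list 1 carry one identifier, treated list 3 and untreated list 2 a second, and treated list 2 a different one, and the labels do not state what it marks. Values within these pairs of lists are given beside those of the groups.

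Chromosome 21 held 3.09%, 2.59% and 2.08% of the peaks in treated lists 1, 2 and 3, against 2.64% and 4.02% in untreated lists 1 and 2. The ranges of the groups overlapped. The 95% Wilson interval was widest for treated list 3, at 1.17 to 3.69%, which like all such intervals here covers counting error only. Averages were 2.59% ± 0.502 in the treated lists (SD, n = 3) and 3.33% ± 0.979 in the untreated lists (SD, n = 2). The difference of -0.74 points was smaller than the SD of the untreated lists (exact two-sided permutation test over the lists, p = 0.4, adjusted p = 0.8 over 10 comparisons of the groups). Within the pairs that share an identifier it was 0.451 points for the lists numbered 1 and -1.94 points for treated list 3 against untreated list 2. With 3 lists against 2, the smallest p this test can give is 0.2. The difference was -0.0485 points without untreated list 2 and -1.43 without untreated list 1.

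The proximal peaks spanned 5.56 Mb, from 9421435 to 14981251. They were gathered at the near end of that span. Of the 187, 180 lay before 12 Mb, none of the 5 lists had a peak between 12 and 14 Mb, and 7 lay between 14 and 15 Mb. The sequence of hg19 was not used, so whether reads can be placed in the stretch without peaks was not examined. The distal peaks spanned 33.1 Mb, from 15016267 to 48118514. The last proximal peak by midpoint, at 14980895 to 14981251 in untreated list 2, had a score of 6.50 and a width of 357 bp. The first distal peak, at 15016267 to 15016598 in the same list, had a score of 6.58 and a width of 332 bp. They lay 18.9 and 16.4 kb from the boundary. Scores are the authors' own and their scale is not named, so they serve only to rank peaks within a list.

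**Figure D1:**
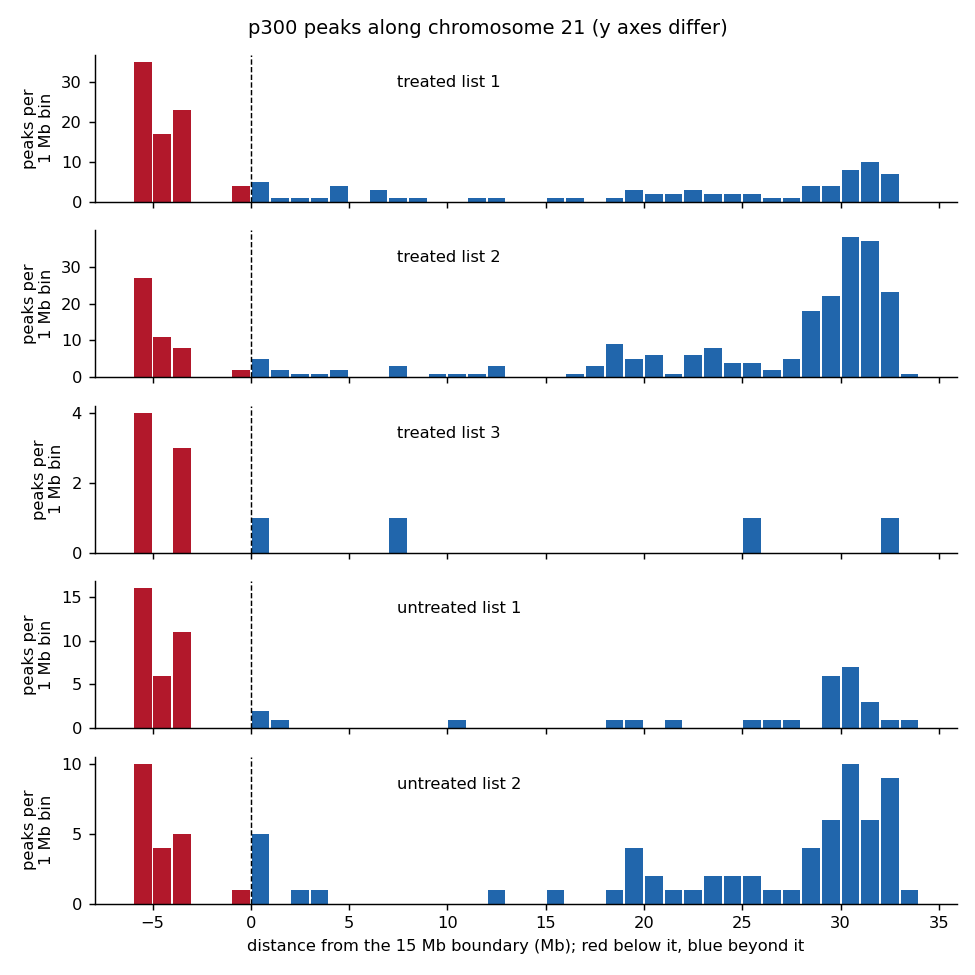
p300 peaks in each 1 Mb bin of chromosome 21 in the 3 treated lists (upper panels) and the 2 untreated lists (lower panels), by distance from the 15 Mb boundary. Bars left of the dashed line are proximal and bars right of it are distal; each list has peaks at both ends of the chromosome, and treated list 3 has 11 in all.

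Peaks were denser in the proximal part in every list. There were 79, 48 and 7 proximal peaks in treated lists 1, 2 and 3, against 33 and 20 in untreated lists 1 and 2. This came to 14.2, 8.63 and 1.26 proximal peaks per Mb in the treated lists, against 5.94 and 3.60 in the untreated lists. The distal part held 73, 213 and 4 peaks in the treated lists, against 28 and 62 in the untreated lists. Distal density was 2.21, 6.43 and 0.121 peaks per Mb in the treated lists, against 0.846 and 1.87 in the untreated lists. The order of the lists was therefore not the same in the 2 parts, since treated list 1 led in the proximal and treated list 2 in the distal part.

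Proximal density exceeded distal density 6.44-fold, 1.34-fold and 10.4-fold in treated lists 1, 2 and 3, against 7.02-fold and 1.92-fold in untreated lists 1 and 2. The mean log2 ratio of proximal over distal density was 2.05, or 4.14-fold, and was positive in 5 of 5 lists (exact two-sided sign-flip permutation test over the 5 lists, p = 0.063, adjusted p = 0.0833 over 4 comparisons). With 5 lists, 0.063 is the smallest p this test can give. The span counts the stretch without peaks. With the boundary moved to 12 Mb, the proximal peaks span 1.77 Mb and the ratio of densities was 12.7-fold. It was 9.73-fold with the 528 best-scoring peaks of each list, as many as the shortest list holds. Against all other chromosomes, at 1.61, 3.31 and 0.175 peaks per Mb in the treated and 0.762 and 0.662 in the untreated lists, proximal density was 5.87-fold higher on average (exact sign-flip permutation p = 0.063, adjusted p = 0.1 over 8 comparisons with other chromosomes). Proximal peaks covered 0.436%, 0.412% and 0.0322% of their span in the treated lists, against 0.190% and 0.168% in the untreated lists.

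Distal density was 1.42-fold that of the other chromosomes on average, which did not hold in every list. It was 1.37-fold, 1.94-fold and 0.691-fold in treated lists 1, 2 and 3, against 1.11-fold and 2.83-fold in untreated lists 1 and 2 (exact sign-flip permutation p = 0.25, adjusted p = 0.333). When each list was cut to its 528 best-scoring peaks, the log2 ratio turned to -0.49.

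**Figure D2:**
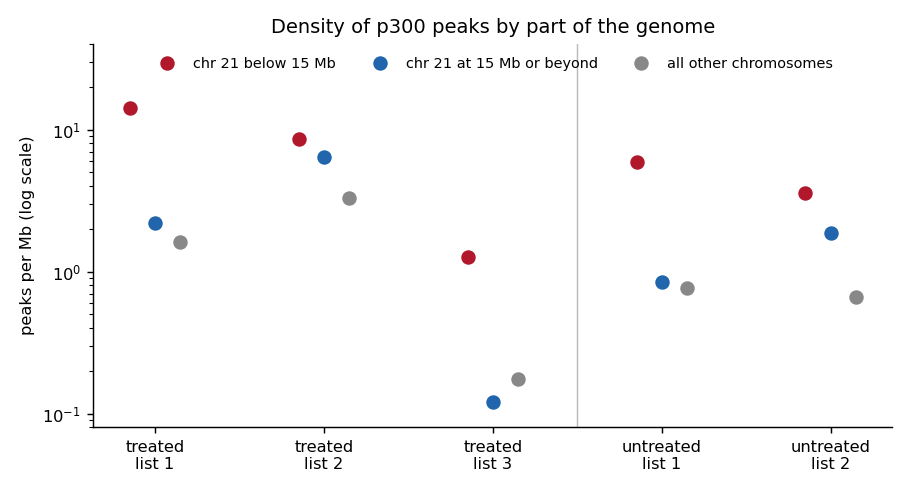
Peaks per Mb, on a log scale, below 15 Mb and at 15 Mb or beyond on chromosome 21 and on all other chromosomes, for treated lists 1 to 3 (left) and untreated lists 1 and 2 (right). Proximal points are the highest in each list, from 1.26 in treated list 3 to 14.2 in treated list 1, and treated list 2 has the smallest gap between the parts.

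Neither part was denser or sparser with MnTE-2-PyP beyond the spread between lists. For proximal density, the log2 ratio of the geometric group means (treated over untreated) was 0.22, or 1.16-fold (exact permutation p = 1, adjusted p = 1). It was 1.26 in the pair of lists numbered 1 and -1.51 in treated list 3 against untreated list 2. Its sign turned without treated list 1, at -0.49, without treated list 2, at -0.13, and without untreated list 2, at -0.15. For distal density it was -0.07 (exact permutation p = 1, adjusted p = 1), with 1.38 and -3.95 in the same pairs, 1.58 without treated list 3 and 0.50 without untreated list 2. The proximal share of chromosome 21 peaks was 52.0%, 18.4% and 63.6% in treated lists 1, 2 and 3, against 54.1% and 24.4% in untreated lists 1 and 2. In the pair of lists numbered 1 it was almost equal, at 52.0% in treated list 1 and 54.1% in untreated list 1. In the other pair it was 63.6% in treated list 3, with a Wilson interval of 35.4 to 84.8%, and 24.4% in untreated list 2, with an interval of 16.4 to 34.7%. The difference of the group means was 5.42 points (exact permutation p = 1, adjusted p = 1), and -4.06 points without treated list 3 and -9.43 without untreated list 2.

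Within the proximal part, the bin from 9 to 10 Mb was the densest by summed peaks. It held 35, 27 and 4 peaks in treated lists 1, 2 and 3, against 16 and 10 in untreated lists 1 and 2. The next was the bin from 11 to 12 Mb, with 23, 8 and 3 peaks in the treated lists, against 11 and 5 in the untreated lists. Proximal peaks were packed closely. The median distance from a peak to the nearest other peak of its list was 2.03, 4.03 and 22.8 kb in the treated lists, against 5.17 and 4.74 kb in the untreated lists. In the distal part that distance was 83.9 and 18.8 kb in treated lists 1 and 2, and 121.7 and 65.9 kb in untreated lists 1 and 2. Treated list 3, with 4 distal peaks, is too short for a distance of this kind.

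Peaks of the parts also differed in how often they were shared between lists. A peak was called shared where it overlapped a peak of any other list by 1 bp or more. Over all chromosomes the shared share was 27.7%, 14.1% and 84.7% in treated lists 1, 2 and 3, against 42.9% and 33.2% in untreated lists 1 and 2. It was lowest in the longest list and highest in the shortest. Proximal peaks were shared at 46.8%, 58.3% and 85.7% in the treated lists, against 72.7% and 90.0% in the untreated lists. These were 37 of 79, 28 of 48 and 6 of 7 peaks in the treated lists, against 24 of 33 and 18 of 20 in the untreated lists. Distal peaks were shared at 13.7%, 7.04% and 50% in the treated lists, against 14.3% and 8.06% in the untreated lists. These were 10 of 73, 15 of 213 and 2 of 4 peaks in the treated lists, against 4 of 28 and 5 of 62 in the untreated lists.

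The proximal percentage was above the distal one by 52.1 points on average and in 5 of 5 lists (exact sign-flip permutation p = 0.063, adjusted p = 0.0833). An overlap counts for both of its lists, so the 5 percentages depend on each other. The tests of sharing treat them as independent. In treated list 3, all 6 shared proximal peaks overlapped a peak of treated list 1. In treated lists 1 and 2 and both untreated lists the Wilson intervals of the parts did not overlap. In treated list 3 they did, at 48.7 to 97.4% for proximal and 15 to 85% for distal peaks. Proximal peaks were also shared more than the peaks of all other chromosomes, by 30.2 points, and distal peaks less, by 22.0 points (-22.0). Both held in 5 of 5 lists (exact sign-flip permutation p = 0.063, adjusted p = 0.1, in each case). Without treated list 1 the proximal excess was 14.01 points (exact sign-flip permutation p = 0.5). With the 528 best-scoring peaks of each list, the proximal excess was 4.64 points (exact sign-flip permutation p = 0.688) and the distal difference -8.90 points (exact sign-flip permutation p = 0.438). Other chromosomes stood at 27.6%, 14.1% and 84.9% in the treated lists, against 42.9% and 33.4% in the untreated lists.

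The gap was smaller without treated list 1 and with fewer peaks. Without treated list 1 it was 33.8 points, and in treated list 3 sharing was then 3 of 7 proximal and 2 of 4 distal peaks, so the gap was negative there. With 528 top-scoring peaks of each list the gap was 13.5 points (exact sign-flip permutation p = 0.5), and then each list held only 4 to 10 proximal and 2 to 10 distal peaks. Proximal peaks were then shared at 60%, 80% and 28.6% in treated lists 1, 2 and 3, against 100% and 62.5% in untreated lists 1 and 2. Distal peaks stood at 60%, 100% and 50% in the treated lists, against 33.3% and 20% in the untreated lists, so the proximal percentage was the higher one in the untreated lists and in no treated list. With all peaks set to 300 bp around their midpoints, an alternative added after seeing the data, it was 47.7 points at equal width.

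**Figure D3:**
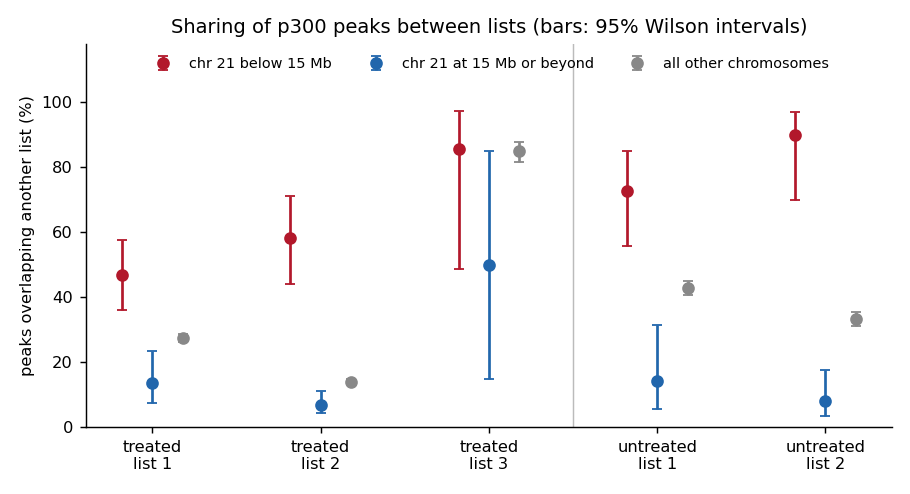
Percentage of peaks that overlap a peak of another list, with 95% Wilson intervals, by part and list, treated lists on the left and untreated lists on the right. Proximal percentages run from 46.8 to 90.0% and lie above the distal ones in each list, and other chromosomes lie between the parts, in treated list 3 at 84.9% beside a proximal 85.7%.

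The gap between the parts was narrower in the treated than in the untreated lists. It was 33.1, 51.3 and 35.7 points in treated lists 1, 2 and 3, against 58.4 and 81.9 points in untreated lists 1 and 2, so the groups did not overlap. The difference of the means was -30.1 points (exact permutation p = 0.2, the smallest possible, adjusted p = 0.8 over 4 such differences), and it was -25.3 and -46.2 points in the pairs that share an identifier. It was -15.5 points without treated list 2, -18.9 without untreated list 2 and -42.2 without untreated list 1, and -68.4 with the 528 best-scoring peaks of each list. Without treated list 1, at -33.6 points, or without treated list 2, the gaps of the groups overlapped (exact permutation p = 0.667 in each case). Proximal sharing alone was 63.6% ± 20.0 in the treated lists (SD, n = 3) and 81.4% ± 12.2 in the untreated lists (SD, n = 2), a difference within the spread between lists (exact permutation p = 0.4, adjusted p = 0.8). Distal sharing was 23.6% ± 23.1 in the treated lists (SD, n = 3) and 11.2% ± 4.40 in the untreated lists (SD, n = 2; exact permutation p = 1, adjusted p = 1), and the difference of 12.4 points became -1.04 without treated list 3. List length moves with these values. Lists of equal length were tried only with the 528 best-scoring peaks of each list, and the part of list length was not tested.

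On other chromosomes a peak's score went with its sharing, and in the proximal part it did so little. Over the 5 lists together, 58.3% of 36 proximal peaks in the lowest 25% of their list's scores were shared, then 61.0% of 41, 55.1% of 49 and 65.6% of 61 in the top 25%. On other chromosomes the same score classes had 16.02%, 15.5%, 19.2% and 47.9%, and in the distal part 6.73%, 4.12%, 8.41% and 22.2%. Within lists, the upper part of the scores, above the median, exceeded the lower part in proximal sharing by -2.55, 7.27 and 20.0 points in treated lists 1, 2 and 3, against 16.5 and 2.02 points in untreated lists 1 and 2. On other chromosomes the same difference was 22.4, 13.4 and 14.8 points in the treated lists, against 24.2 and 20.95 points in the untreated lists. It was smaller in the proximal part in 4 of the 5 lists, and larger in treated list 3, which has 7 proximal peaks. In untreated list 2, 8 of 9 proximal peaks in the lower part were already shared, which leaves little room for a rise. These values were chosen after seeing the data and were not tested.

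**Figure D4:**
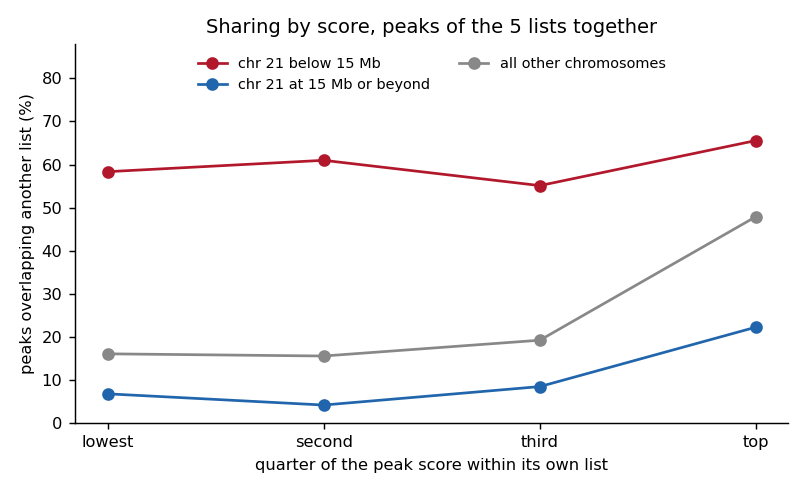
Percentage of peaks that overlap a peak of another list, by score class, each 25% of a list from lowest to top, for the peaks of the 5 lists together. The proximal line stays between 55.1 and 65.6%, while other chromosomes reach 47.9% and the distal part 22.2% in the top class. Lists give unequal numbers of peaks to each line, and treated list 1 gives the most proximal ones, 79 of 187.

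Overlapping peaks were then merged into regions. The proximal part held 116 regions and the distal part 359. Of the proximal regions 42, or 36.2%, were in 2 or more lists, and of the distal regions 15, or 4.18%, against 10.4% of the 16701 regions of the genome. In 3 or more lists there were 15 proximal regions (12.9%) and 5 distal ones (1.39%), against 4.23% in the genome. Both regions of chromosome 21 found in all 5 lists were proximal, against 0.886% in all 5 lists in the genome, and the most widely shared distal region was in 4. All 15 proximal regions in 3 or more lists were held by lists of both groups. With 2 untreated lists, such a region can miss a group only where it is in all 3 treated lists alone. In the genome this was so for 40 of 706 regions in 3 or more lists, and treated list 3 has only 7 proximal peaks. The 15 proximal regions lay between 9548844 and 11148255, with 7 from 9 to 10 Mb, 3 from 10 to 11 Mb and 5 from 11 to 12 Mb. Their median distance to the next was 33.1 kb, and their width ran from 409 to 1111 bp.

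The 2 regions in all 5 lists were at 11109772 to 11110673 and at 9548844 to 9549816. The first scored 5.80, 12.4 and 6.55 in treated lists 1, 2 and 3, against 10.5 and 12.8 in untreated lists 1 and 2. The second had 7.18, 5.10 and 2.16 in the treated lists, against 7.44 and 5.62 in the untreated lists. Neither was among the strong peaks of every list. The score of 2.16 was the lowest of any peak in treated list 3.

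The strong recurrent proximal regions were in 4 lists, all but treated list 3. At 9695761 to 9696169 the scores were 37.6 and 31.8 in treated lists 1 and 2, against 35.8 and 22.6 in untreated lists 1 and 2, and this was the highest proximal score of untreated list 2. At 9826965 to 9827565 they were 34.8 and 34.1 in treated lists 1 and 2, against 39.2 and 19.0 in untreated lists 1 and 2, and this was the highest proximal score of treated list 2. At 9699384 to 9700494 they were 44.5 and 14.02 in treated lists 1 and 2, against 47.6 and 7.52 in untreated lists 1 and 2. That region held the highest proximal scores of treated list 1 and untreated list 1. Its peaks lay at score percentiles of 99.1 and 96.7 in treated lists 1 and 2, against 97.6 and 79.3 in untreated lists 1 and 2. The neighbouring region at 9698556 to 9699268 stood at percentiles of 98.8 and 64.0 in treated lists 1 and 2, against 93.8 and 48.4 in untreated lists 1 and 2. At the region that begins at 9695761 the percentiles were 98.4 and 99.1 in treated lists 1 and 2, against 95.6 and 98.5 in untreated lists 1 and 2, so there the lists numbered 2 ranked higher. The other named regions in 4 lists were at 11143657 to 11144560 and at 11147807 to 11148255, with scores from 4.84 to 11.2. A further proximal region in 4 lists, at 9975169 to 9975625, fell outside the 8 named ones. It was held by treated lists 1, 2 and 3 and by untreated list 1.

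Treated list 3 lacked those regions, and its own highest proximal peak was at 9825927 to 9826263, with a score of 21.9. It overlapped a peak of treated list 1 and of no other list, and the recurrent region that begins at 9826965 is its neighbour.

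The distal regions in 3 or more lists were scattered, with a median distance to the next of 5506 kb. The one in 4 lists, at 34993231 to 34993590, scored 46.0 and 19.2 in treated lists 1 and 2, against 21.4 and 11.8 in untreated lists 1 and 2. It was the highest distal peak of treated lists 1 and 2. At 39033957 to 39034292 the scores were 37.1 and 6.22 in treated lists 1 and 2, against 17.4 in untreated list 2, whose highest distal peak this was. At 15450916 to 15451273 they were 26.2 and 7.93 in treated lists 1 and 2, against 11.5 in untreated list 1. At 42487761 to 42488272 they were 7.31 and 8.47 in treated lists 1 and 2, against 8.47 in untreated list 1. These regions were 312 to 512 bp wide and had a median score percentile of 85.3 (mean over the lists that hold a region, median over regions), against 65.7 for the 15 proximal ones. The highest distal peaks of the remaining lists were found in no other list. They were at 15457242 to 15457454 in treated list 3, with a score of 15.6, and at 46437800 to 46438070 in untreated list 1, with a score of 37.8.

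Regions that followed treatment were few in both parts. The region at 22421244 to 22421555 was the only one on chromosome 21 in all 3 treated and no untreated list, where treated lists 1, 2 and 3 scored 15.004, 8.21 and 8.31. It is 1 of 475 regions of the chromosome, against 0.24% of regions in the genome. Regions in at least 2 treated lists and absent from both untreated lists numbered 9 in the proximal part (7.76%) and 7 in the distal part (1.95%), against 2.93% in the genome. Counted among regions in 2 or more lists, these were 9 of 42 proximal and 7 of 15 distal ones, against 489 of 1742 in the genome. By that count the order of the parts was reversed. Treated lists 1 and 2 are also longer than both untreated lists, and the part of list length was not tested. All 9 proximal ones held a peak of treated list 1, of which 6 were shared with treated list 2 and 3 with treated list 3. Of the 7 distal ones, 5 were held by treated lists 1 and 2 alone. One region was in both untreated and no treated list, at 9880865 to 9881222 in the proximal part, where untreated list 1 scored 4.95 and untreated list 2 scored 3.35. Both scores were low in their lists, at percentiles of 13.5 and 10.2, and such regions made up 0.186% of the genome's regions. A single region cannot be tested with 3 lists against 2.

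Overlap was also counted for each pair of lists. Of the shorter list's proximal peaks, 43.8% overlapped between treated lists 1 and 2, and 40% between untreated lists 1 and 2. Across groups it was 57.6% for treated list 1 and untreated list 1, 70.0% for treated list 1 and untreated list 2, 45.5% for treated list 2 and untreated list 1, and 70.0% for treated list 2 and untreated list 2. For distal peaks the same pairs stood at 13.7% and 3.57% within groups, and at 10.7%, 3.23%, 14.3% and 8.06% across groups. On other chromosomes they stood at 21.2% and 17.02% within groups, and at 30.6%, 23.3%, 32.02% and 26.4% across groups. Among these pairs, higher overlap across than within groups was therefore not confined to the proximal part. Pairs with treated list 3 rest on 7 proximal and 4 distal peaks. Those pairs had the opposite order in each class. Proximal peaks stood at 85.7% and 42.9% within and 28.6% and 28.6% across groups. Distal peaks stood at 25% and 50% within and 0% and 0% across groups. On other chromosomes the values were 63.2% and 74.5% within and 54.5% and 39.3% across groups. The length of the longer list differs between pairs, and its part was not tested.

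Distal peaks gathered at the far end of the chromosome. The densest distal bin, from 45 to 46 Mb, held 8 and 38 peaks in treated lists 1 and 2, against 7 and 10 in untreated lists 1 and 2, and no peak of treated list 3. From 43 Mb to the end lay 45.2%, 65.3% and 25% of the distal peaks of treated lists 1, 2 and 3, against 64.3% and 58.1% of those of untreated lists 1 and 2. In the 5 lists together, 10 of 227 peaks from 43 Mb on (4.41%) overlapped another list, against 20 of 93 (21.5%) from 33 to 43 Mb, and treated list 2 gave 139 of the 227. This order held within treated list 1, with 4 of 33 peaks from 43 Mb on and 4 of 19 before it, and treated list 2, with 5 of 139 and 8 of 50. It also held within untreated list 2, with 1 of 36 and 4 of 17, and in untreated list 1, with 0 of 18, which allows a share of up to 16.7%, and 3 of 6. From 15 to 33 Mb, 2 of 21 and 2 of 24 peaks were shared in treated lists 1 and 2, against 1 of 4 and 0 of 9 in untreated lists 1 and 2, so the share from 43 Mb on was not the lower one in treated list 1 and untreated list 2. Median score percentiles from 43 Mb on were 47.7 and 39.1 in treated lists 1 and 2, against 36.6 and 38.2 in untreated lists 1 and 2. From 33 to 43 Mb they were higher in each of these lists, at 56.2 and 58.1 in the treated and 50.03 and 43.9 in the untreated lists. From 15 to 33 Mb they were 68.3 and 41.0 in the treated and 49.3 and 37.9 in the untreated lists, the last of these below the value from 43 Mb on. Treated list 3 has 4 peaks over the 3 stretches. These limits were chosen after seeing the data and were not tested.

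Proximal peaks were wider than distal ones in every list. Median width was 257, 399.5 and 250.0 bp in treated lists 1, 2 and 3, against 277 and 416.5 bp in untreated lists 1 and 2. Distal medians were 212, 317 and 207.5 bp in the treated lists, against 217 and 357 bp in the untreated lists. The mean difference was 57.9 bp, positive in 5 of 5 lists (exact sign-flip permutation p = 0.063, adjusted p = 0.0833), and 124.9 bp with the 528 best-scoring peaks of each list. Proximal peaks were also wider than those of other chromosomes, by 37.4 bp, and distal peaks narrower, by 20.5 bp (-20.5), each in 5 of 5 lists (exact sign-flip permutation p = 0.063, adjusted p = 0.1). Each list has its own narrowest peak, at 193, 291 and 200 bp in the treated and 199 and 332 bp in the untreated lists, and the distal medians lay close to it. Differences in width between lists cannot be told apart from these limits.

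With MnTE-2-PyP, proximal median width was 302 ± 84.4 bp (SD, n = 3), and without it 347 ± 98.6 bp (SD, n = 2), a difference of -44.6 bp within the spread (exact permutation p = 0.4, adjusted p = 0.8). For distal peaks the difference was -41.5 bp (exact permutation p = 0.4, adjusted p = 0.8). Both turned positive without untreated list 2, at 25.2 and 28.5 bp. The step in width between the parts was 45.0, 82.5 and 42.5 bp in the treated lists, against 60 and 59.5 bp in the untreated lists (exact permutation p = 1, adjusted p = 1).

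**Figure D5:**
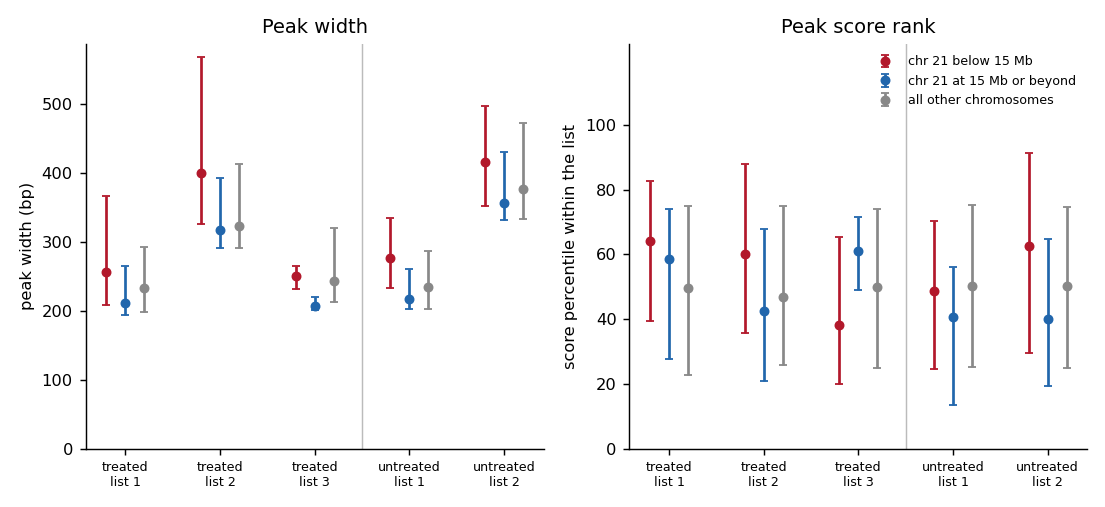
Median and interquartile range of peak width in bp (left panel) and of the score percentile within the list (right panel) by part, treated lists left of the grey line and untreated lists right of it. Proximal medians of width are the highest of the 3 classes in each list, and score percentiles differ in both directions.

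Score rank separated the parts less clearly. The median percentile of proximal peaks was 64.2, 60.1 and 38.3 in treated lists 1, 2 and 3, against 48.9 and 62.6 in untreated lists 1 and 2. For distal peaks it was 58.7, 42.6 and 60.9 in the treated lists, against 40.7 and 40.1 in the untreated lists. Proximal peaks ranked 6.19 points higher on average, in 4 of 5 lists (exact sign-flip permutation p = 0.438, adjusted p = 0.438). The exception was treated list 3, and without it the difference was 13.4 points. It was 2.11 without untreated list 2, 3.37 without treated list 2 and, with peaks ranked again among those kept, 19.5 with a score minimum at the pooled median and 2.34 with the 528 best-scoring peaks of each list. Scores in the top 25% of a list were held by 28 of 79, 18 of 48 and 2 of 7 proximal peaks in the treated lists, against 5 of 33 and 8 of 20 in the untreated lists. For distal peaks the counts were 18 of 73, 42 of 213 and 1 of 4 in the treated lists, against 3 of 28 and 8 of 62 in the untreated lists. On other chromosomes the share was 24.6 to 25.3% in each list, and the proximal share of untreated list 1, at 15.2%, lay below that.

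The median percentile of distal peaks was higher in each treated list than in either untreated list. The difference of the means was 13.6 points (exact permutation p = 0.2, the smallest possible, adjusted p = 0.8), and it was 17.9 and 20.8 points in the pairs that share an identifier. With the 528 best-scoring peaks of each list, ranked again among themselves, it was -6.87 points, from 2 to 10 distal peaks per list. Treated list 3 enters with 4 distal peaks, and without it the difference was 10.2 points. Proximal percentiles differed by -1.54 points between the groups (exact permutation p = 1, adjusted p = 1), with 15.3 and -24.4 points in the same pairs, and by 6.42 points without treated list 3 and 5.34 without untreated list 2. Ranked again among the 528 best-scoring peaks of each list, they differed by -30.8 points, from 4 to 10 proximal peaks per list (exact permutation p = 0.2).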

How the data were processed

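The authors deposited 1 peak list for each of 5 p300 libraries, which gives each peak's position, name and score. Neither labels nor lists name the scale of this deposited score, and it served only to rank or filter peaks within a list. Peaks were called with MACS2 on hg19, per the submitters' processing notes. Not given in the sources used here are the aligner, its handling of reads that match several places, the threshold and the control library. The 4 input libraries were not used here.

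Each peak was assigned to a part by its midpoint and given the percentile of its score within its list. Density was taken over the span between the outermost peaks of a part, all lists together. Groups were compared with exact two-sided permutation tests over the 10 splits of the lists, and parts with exact two-sided sign-flip permutation tests over 32 sign patterns, with Benjamini-Hochberg adjustment within 4 families. The labels call the libraries biological replicates. No peak was identical in 2 lists. Named regions were the regions in 3 or more lists (up to 8 per part), those in all lists of one group alone, each list's best peak per part, the densest bins and the peaks beside the boundary. The stretches of the distal part and the split by score were chosen after seeing the data. The parts, the boundary and the measures were chosen with earlier results of these data known. Alternatives were boundaries at 12 and 16 Mb, a score minimum at the pooled median, 528 top-scoring peaks per list, 50% overlap, merging within 500 bp, occupied 1 Mb bins, group medians, pairings and leaving out each list. On simulated data, the counting of regions returned 100% of 360 planted regions with their lists. The planted regions were evenly spaced and far apart, so closely packed peaks like the proximal ones were not covered. Coordinates are counted from 1. Python 3.11.15, numpy 2.4.6, pandas 2.3.3, scipy 1.17.1 (Wilson intervals) and matplotlib 3.10.9 were used.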

Additional observations from a re-analysis of the deposited data

How the results depend on the processing

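Among the values recomputed, 297 stayed on the same side of zero or, for region counts, within 1.5-fold, 36 changed sign and 21 counts moved further. The 297 include values that could not change, such as the chromosome 21 share under a moved boundary. The group ratios of density over occupied bins could not change either. Block and identifier pairing repeat leave-one-out values for measures other than sharing. The excess of the proximal over the distal part in density, sharing and width kept its sign on average under each setting tried, though not in every list for sharing, while the tests of 5 lists are too small to pass a threshold in any setting. A score minimum at the pooled median gave 0.22 for the log2 ratio of distal density between groups, -0.31 points for the proximal share and -0.058 for the group difference in the density ratio. It left 21 proximal and 8 distal regions in 2 or more lists, 5 and 4 in 2 or more treated lists alone and 0 proximal in the untreated lists alone. The 528 best-scoring peaks of each list left 7 and 4, 1 and 2, and 0 of these, and turned the group difference in distal score percentile to -6.87, the distal percentile against other chromosomes to 4.90 and the distal density against them to -0.49. Both settings hold fewer peaks, whose percentiles were taken again among the peaks kept. Group medians gave 0.81 for distal density and 4.38 for the proximal percentile. A boundary at 12 Mb gave 0.955 for that percentile and one at 16 Mb gave 5.25 bp for the group difference in the width step. Merging within 500 bp gave 24 distal regions in 2 or more lists.

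Leaving out 1 list gave ranges that crossed zero between groups for the log2 ratio of proximal density (-0.49 to 1.26) and of distal density (-1.29 to 1.58), the proximal share (-9.43 to 20.3 points), distal sharing (-1.04 to 16.2 points), proximal width (-114.3 to 25.2 bp), distal width (-111.5 to 28.5 bp) and the proximal percentile (-8.43 to 6.42). The same held for the group differences in the density ratio (-0.65 to 1.22) and in the width step (-16.0 to 4 bp), and for the distal percentile against other chromosomes (-3.77 to 1.49). Regions in 2 or more lists ran from 22 to 39 (proximal) and 5 to 14 (distal), those in 2 or more treated lists alone from 0 to 13 and 1 to 9, and those in the untreated lists alone from 1 to 10 and 0 to 57, as fewer lists then define each set. Without treated list 1, 0 proximal regions were in the other treated lists alone.

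With the replicate number as a block, the log2 ratio of distal density was 1.58, the proximal share -4.06 points, distal sharing -0.80 points, the proximal percentile 6.42, the group difference in the density ratio -0.32 and that in the width step 4 bp. Except for sharing, these values are the same as those without treated list 3, so the block is no separate check of them. Deviations of peak numbers in 5 Mb bins correlated at 0.0914 for number 1 and 0.288 for number 2. The labels do not say that a number marks a shared batch, and with only these pairs the correlations do not settle whether they pair the lists. The lists numbered 1 also share an identifier in their peak names, and those numbered 2 do not. Pairing by that identifier gave -0.13 for proximal density, the same value as without treated list 2. The cause of these changes was not tested. Treated list 3, with 7 proximal and 4 distal peaks, limits each value it enters.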
